A study of Mus musculus with 16 samples.

Results

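The respiratory chain and ATP synthase genes are the 113 genes, of 41204 in the count table, whose symbols begin with those of the subunit families of complexes I to V, from Ndufa, Ndufb, Ndufc, Ndufs and Ndufv through Sdha to Sdhd, Uqcr and Cox4 to Cox8 to Atp5. The mitochondrially encoded subunit genes (mt-Nd, mt-Co, mt-Cytb and mt-Atp) are among them. Names marked as pseudogenes with "-ps", 9 in all, were left out. Of the 113 members, 100 are nuclear-encoded, namely 47 of complex I, 8 of complex II, 8 of complex III, 21 of complex IV and 16 of complex V. The other 13 are encoded by the mitochondrial genome, namely 7 of complex I, 1 of complex III, 3 of complex IV and 2 of complex V. The choice by symbol also takes in 12 assembly factors (Ndufaf1 to Ndufaf8 and Sdhaf1 to Sdhaf4), and Cox6c2, Ndufa11b, Ndufb4c and Ndufs6b, which GENCODE annotates as processed pseudogenes. Ndufa4 and Ndufa4l2 were counted with complex IV, in which the Ndufa4 protein sits.

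RNA was sequenced from the supraspinatus tendon of the shoulder, the patellar tendon of the knee, the flexor tendon of the forepaw and the Achilles tendon of the heel of C57BL/6J mice, an inbred laboratory strain, with 4 libraries per tendon (16 in all). The groups are called Supraspinatus, Patellar, Flexor and Achilles, no treatment or allele is given for any of them, and the study compared mRNA between every pair. Mice are numbered 1 to 4 within each tendon, but the labels do not say whether equal numbers mark the same animal, and they give no age or sex. The p-values therefore measure the spread between these libraries.

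The respiratory chain carries electrons from NADH and succinate through complexes I and II, ubiquinone, complex III, cytochrome c and complex IV to oxygen, and the proton gradient that complexes I, III and IV build drives ATP synthase, complex V. All complexes but complex II combine subunits made from nuclear genes with core subunits made inside the mitochondrion from its own small genome. Several subunits of complex IV exist as a widely used form and as a form known from heart and skeletal muscle, among them Cox6a1 and Cox6a2, Cox7a2 and Cox7a1, and Cox8a and Cox8b. The latter are called muscle forms here, a name that does not mean that only muscle makes them.

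The muscle-type and widely used subunits of complex IV moved in opposite directions between Patellar and the other tendons for Cox6a and Cox8, so the upstream sequences of 2 genes of each kind are shown first. Each is the 250 bases before the RefSeq start on the gene's own strand in build GRCm38.p6. Cox7a1 (chr7:30183921-30184170, plus strand) and Cox8b (chr7:140900447-140900696, minus strand) are muscle-type genes with low Patellar levels. Cox8a (chr19:7217617-7217866, minus strand) and Cox6a1 (chr5:115348959-115349208, minus strand) are widely used genes with high Patellar levels. Capitals mark matches, on either strand, to 4 sets of letters, namely GCGCA and GCGC with any 1 base between them for NRF1, CCGGAAG for ETS factors, CANNTG for the E-box (which reads the same on both strands) and TCAAGGTCA for the estrogen-related receptors.
Cox7a1: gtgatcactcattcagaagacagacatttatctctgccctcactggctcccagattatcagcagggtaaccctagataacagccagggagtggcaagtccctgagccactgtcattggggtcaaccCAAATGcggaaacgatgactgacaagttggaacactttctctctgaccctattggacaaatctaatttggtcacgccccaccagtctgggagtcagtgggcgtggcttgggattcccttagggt
Cox8b: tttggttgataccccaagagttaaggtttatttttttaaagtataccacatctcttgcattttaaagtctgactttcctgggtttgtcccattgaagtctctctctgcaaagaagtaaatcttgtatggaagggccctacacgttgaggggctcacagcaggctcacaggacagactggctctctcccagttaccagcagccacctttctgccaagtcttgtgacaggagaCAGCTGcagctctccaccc
Cox8a: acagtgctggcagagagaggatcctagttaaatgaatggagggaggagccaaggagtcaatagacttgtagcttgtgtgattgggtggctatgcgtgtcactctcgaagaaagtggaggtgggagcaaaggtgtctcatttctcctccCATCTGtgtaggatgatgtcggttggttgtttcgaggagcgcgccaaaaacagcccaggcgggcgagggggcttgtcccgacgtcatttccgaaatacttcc
Cox6a1: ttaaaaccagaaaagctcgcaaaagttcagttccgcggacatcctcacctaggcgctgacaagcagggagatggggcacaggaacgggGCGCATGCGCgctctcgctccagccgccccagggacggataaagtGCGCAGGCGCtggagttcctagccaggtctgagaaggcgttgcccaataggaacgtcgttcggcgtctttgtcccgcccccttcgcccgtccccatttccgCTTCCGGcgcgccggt
The Cox7a1, Cox8b and Cox8a windows held 1 E-box match each and no other. The Cox6a1 window held 2 NRF1 matches and 1 ETS match, no 2 of them overlapping, and no E-box match. RefSeq windows were matched for 77 of the 113 members. The NRF1 letters occurred in 13 of these 77 (16.9%), against 1044 of 27025 (3.86%) windows of all genes, and the ETS letters in 19.5% against 7.05%. The E-box letters occurred in 63.6% of the members' windows, against 66.0% of all windows, and the receptor letters in 1.3%, against 0.366%. These are matches of letters and were not tested for factor binding.

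Library totals lay between 86898889 and 107805065 counts in Supraspinatus, between 34559686 and 63235636 in Patellar, between 97242489 and 106573353 in Flexor and between 84414005 and 97180849 in Achilles. A group of 7 genes with rRNA or rRNA-like sequence, called rRNA-like here, took 13.2% to 42.0% of Patellar counts and no more than 4.91% in any other library. The rRNA genes of the mitochondrial genome were in this group. Counts of skeletal muscle markers, a list of 48 genes, made up 15.2% to 16.8% of Supraspinatus libraries, 1.22%, 0.0807%, 0.108% and 0.398% of Patellar libraries 1 to 4, 8.60% to 12.2% of Flexor libraries and 7.14% to 13.3% of Achilles libraries. None of the 48 was at 0 in any library. Markers of white adipocytes, a list of 12 genes, made up 0.0983% to 0.253% in Supraspinatus, 0.867% to 2.67% in Patellar, 0.111% to 0.165% in Flexor and 0.727% to 1.42% in Achilles. Brown adipocyte markers, a list of 4 genes, took at most 0.000990% of counts in any library. The brown fat gene Ucp1, 1 of these, was at 0 in all Patellar and Achilles libraries and in 2 Flexor libraries, but in no Supraspinatus library. Tendon fibroblast markers were present in all libraries, at 1.32% to 3.84%, 3.14% to 7.18%, 3.12% to 3.51% and 1.53% to 4.62% of counts in Supraspinatus, Patellar, Flexor and Achilles, in that order. Because the Patellar muscle marker shares do not overlap those of any other tendon, muscle marker share and Patellar tendon cannot be told apart by group. In tissue RNA, fewer cells of a type cannot be told apart from less RNA per cell.

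Nuclear-encoded members took 2.69% ± 0.292 of Supraspinatus counts, 0.959% ± 0.229 of Patellar counts, 2.50% ± 0.244 of Flexor counts and 2.82% ± 0.653 of Achilles counts (mean ± SD, n = 4 each). The 4 Patellar libraries, at 1.21%, 1.09%, 0.717% and 0.820%, lay below all 12 others, of which the lowest was at 2.25%. With mitochondrially encoded, haemoglobin and rRNA-like genes taken out of the totals, the means were 2.88%, 1.42%, 2.62% and 3.04% in the same order.

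Mitochondrially encoded members, in contrast, took 3.29% ± 0.350 in Supraspinatus, 2.37% ± 0.542 in Patellar, 2.43% ± 0.0910 in Flexor and 2.83% ± 0.646 in Achilles. Patellar libraries 1, 3 and 4 were at 2.61%, 2.73% and 2.56%, within the range of the Achilles libraries, and Patellar 2 was the lowest of all at 1.56%. With mitochondrially encoded, haemoglobin and rRNA-like genes taken out of the totals, the tendon means were 3.52%, 3.67%, 2.55% and 3.06%. These are in the same order of tendons, so that the Patellar mean was then the highest and no longer the lowest. The ratio of mitochondrially encoded to nuclear-encoded counts was 2.16, 1.43, 3.81 and 3.12 in the 4 Patellar libraries. In Supraspinatus libraries it lay between 1.19 and 1.24, in Flexor libraries between 0.888 and 1.05, and in Achilles libraries between 0.973 and 1.06, so that every Patellar library was above the 12 others.

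**Figure D1:**
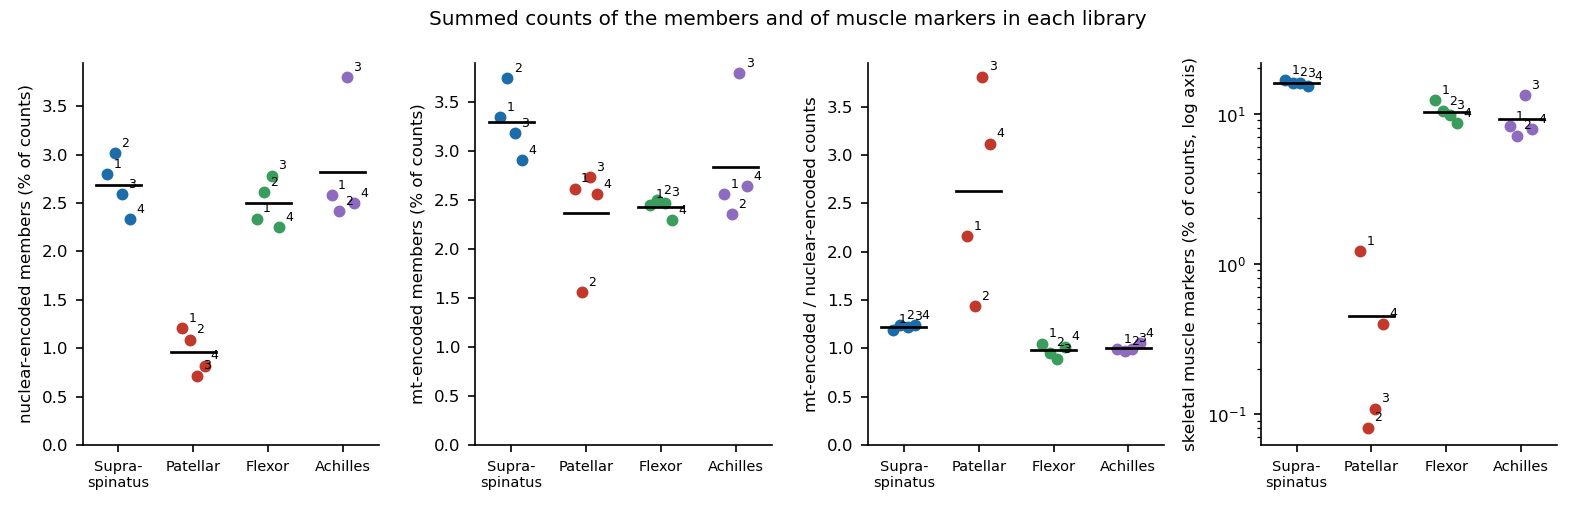
Each point is 1 library, numbered as in the labels, and black lines are tendon means. The panels give, from left to right, nuclear-encoded members and mitochondrially encoded members as a percent of counts, the ratio of mitochondrially encoded to nuclear-encoded counts, and skeletal muscle markers as a percent of counts on a log axis. The Patellar libraries stand lowest in the first and last panels and highest in the third.

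After a filter on low counts, 111 members were among 23754 genes tested with edgeR's quasi-likelihood test at a Benjamini-Hochberg adjusted p under 0.05. The 2 not tested were Cox7b2, a testis form with mean levels of 0.0480, 0.0539, 0.0122 and 0.00978 CPM, the counts scaled to a common library total, in Supraspinatus, Patellar, Flexor and Achilles, and Cox8c, which was at 0 in all libraries except Achilles 4 (0.00912 CPM). Of the 111, 99 differed between the tendons in the test over all 4, where 64.9% of all genes tested were called. The 12 that were not called were 6 mitochondrially encoded members (mt-Co1, mt-Atp8, mt-Nd4, mt-Nd5, mt-Nd6 and mt-Cytb) and 6 nuclear-encoded ones (Cox6b2, Cox7a2l, Ndufa2, Ndufa4l2, Ndufaf8 and Ndufv3). Among the 100 nuclear-encoded members the highest tendon mean was in Supraspinatus for 85, in Patellar for 7, in Flexor for 3 and in Achilles for 5, and the lowest was in Patellar for 89.

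Most nuclear-encoded members of all 5 complexes were higher in Supraspinatus than in Patellar, and lower in Patellar than in Flexor or Achilles. In Supraspinatus minus Patellar, 89 members were called higher and 3 lower, where 53.3% of all genes tested were called, 26.4% higher and 26.8% lower. Patellar minus Flexor had 9 members called higher and 84 lower (50.3% of all genes, 24.2% higher and 26.2% lower), and Patellar minus Achilles had 5 higher and 81 lower (38.4% of all genes, 17.4% higher and 21.1% lower). Median log2 fold changes of the nuclear-encoded members were 1.40, -1.02 and -1.03 in these comparisons, beside medians of -0.08, -0.01 and -0.01 over all genes. These comparisons share the Patellar libraries, so they are not independent of each other.

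Muscle markers moved with the nuclear-encoded members in all of these comparisons. Of the 48 markers, 41 were called higher and 5 lower in Supraspinatus minus Patellar. There were 2 higher and 42 lower in Patellar minus Flexor, and 0 higher and 48 lower in Patellar minus Achilles. With the mean log2 CPM of the markers as a covariate, the nuclear-encoded medians were 0.50, -0.24 and -0.17, and 23, 19 and 10 members of either genome were called. By direction these were 19 higher and 4 lower in Supraspinatus minus Patellar, 11 higher and 8 lower in Patellar minus Flexor, and 5 higher and 5 lower in Patellar minus Achilles. The nuclear-encoded ones among them were 5 higher and 8 lower in Patellar minus Flexor, and 1 higher and 5 lower in Patellar minus Achilles. Of the members called without the covariate, 21 of 92, 15 of 93 and 7 of 86 were also called with it, 1 of them in the opposite direction. Calls also fell over all 23754 genes tested, from 12651, 11952 and 9131 to 5348, 5506 and 3628. The share of the 111 members called with the covariate was below the share of all genes in each comparison.

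Among the members described below, Ndufs1, Sdha, Uqcrc1, Atp5a1 and Atp5b kept their calls in all 3 comparisons with Patellar under the covariate. Sdha was at 2.14 (adjusted p = 0.0027), -1.82 (0.0037) and -1.83 (0.0081), and Uqcrc1 at 1.62 (0.017), -1.17 (0.048) and -1.45 (0.034). Uqcrc2 kept 2 of its 3 calls and Uqcrfs1, Ndufaf4 and Ndufaf6 1, that in Supraspinatus minus Patellar. The calls of Ndufv1, Sdhb, Cox4i1, Cox5a, Cox6b1, Cox7a2, Ndufa4, Ndufaf2, Atp5g1, Atp5g2 and Atp5g3 in the comparisons with Patellar were lost, with Cox5a at 1.02 (0.11), -0.27 (0.67) and -0.59 (0.38).

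**Figure D2:**
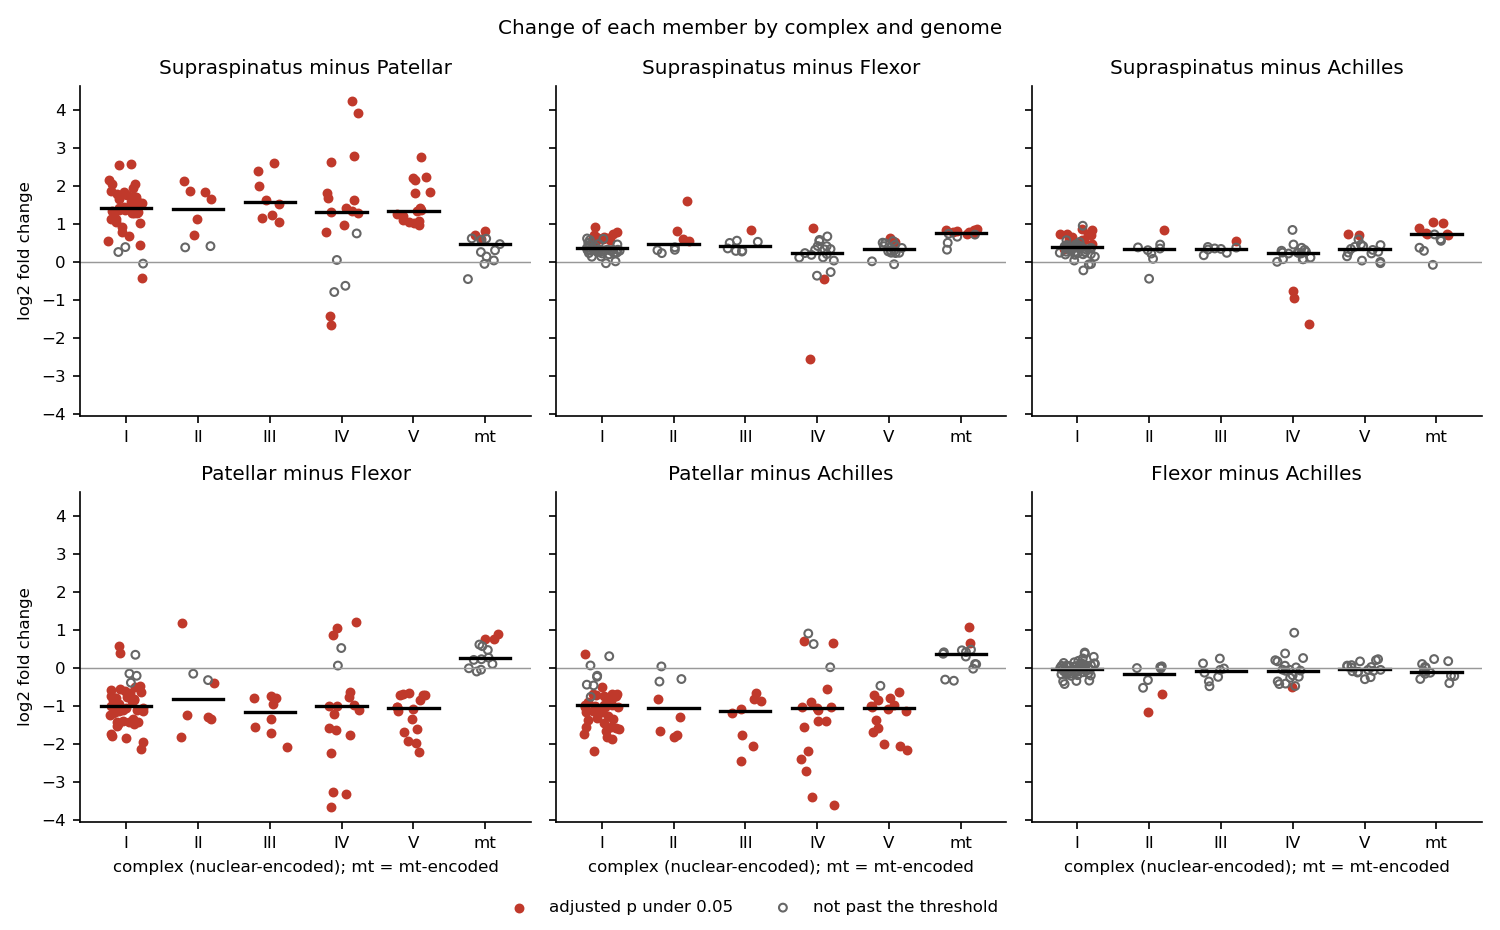
Each point is 1 of the 111 members tested, placed by complex (nuclear-encoded I to V) or under mt (mitochondrially encoded) on the x axis and by its log2 fold change on the y axis, with 1 panel per comparison. Filled red points passed an adjusted p of 0.05, open points did not, and black lines are medians. In Supraspinatus minus Patellar the nuclear-encoded medians lie between 1.32 and 1.57 and the mitochondrially encoded median at 0.47, while in Flexor minus Achilles only 3 points are filled.

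In complex I, the NADH dehydrogenase, 43 of 47 nuclear-encoded members were called higher and 1 lower in Supraspinatus minus Patellar, 2 were higher and 41 lower in Patellar minus Flexor, and 1 was higher and 39 lower in Patellar minus Achilles. Ndufs1 (chr1:63143596-63176833 in GRCm38), the largest iron-sulfur subunit, had 432, 397, 396 and 361 CPM in Supraspinatus libraries 1 to 4, 86.3, 72.2, 45.2 and 60.0 CPM in Patellar, 313, 289.7, 321 and 243 CPM in Flexor and 268, 219, 434 and 273 CPM in Achilles. All 4 Patellar libraries lay far below the rest, and Achilles 3 stood above the other Achilles libraries. The log2 fold change was 2.59 ± 0.22 (SE) in Supraspinatus minus Patellar (adjusted p = 1.7e-07), -2.14 ± 0.22 in Patellar minus Flexor (adjusted p = 1.3e-06) and -2.18 ± 0.22 in Patellar minus Achilles (adjusted p = 3.6e-06).

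Ndufv1, the subunit that takes electrons from NADH, averaged 422 ± 41.0 CPM in Supraspinatus, 122 ± 24.2 in Patellar, 419 ± 17.7 in Flexor and 443 ± 145 in Achilles (SD, n = 4 each). It was called only in the comparisons with Patellar, by 1.80, -1.78 and -1.87. Ndufa2 and Ndufv3, small accessory subunits, had log2 fold changes of 0.39 ± 0.19 (adjusted p = 0.096) and 0.43 ± 0.15 (adjusted p = 0.024) in Supraspinatus minus Patellar and no call in the other 5 comparisons.

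Complex II, succinate dehydrogenase, is entirely nuclear-encoded. Its flavoprotein subunit Sdha (chr13:74322254-74350280) had 1109, 1013, 1037 and 983 CPM in Supraspinatus, 213, 257, 249 and 226 CPM in Patellar, 869, 848, 839.7 and 771 CPM in Flexor and 775, 628, 1164 and 787 CPM in Achilles. The 4 Patellar libraries lay close together and apart from all others. Sdha changed by 2.13 ± 0.17 in Supraspinatus minus Patellar (adjusted p = 9e-08), -1.82 ± 0.17 in Patellar minus Flexor (adjusted p = 5.2e-07) and -1.83 ± 0.17 in Patellar minus Achilles (adjusted p = 1.8e-06). The iron-sulfur subunit Sdhb changed by 1.85, -1.25 and -1.77. All 4 subunits passed in these comparisons, whereas the assembly factors of complex II, described below, did not move together.

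Complex III passes electrons from ubiquinol to cytochrome c, and all 8 of its nuclear-encoded members were called higher in Supraspinatus than in Patellar and lower in Patellar than in Flexor and in Achilles. Uqcrc1 (chr9:108936633-108949623), a large core protein of the matrix side, had 922, 859, 845 and 866 CPM in Supraspinatus, 196, 144, 90.8 and 139.7 CPM in Patellar, 619, 621, 599 and 585 CPM in Flexor and 664, 611, 1178 and 647 CPM in Achilles. Its log2 fold changes were 2.61 ± 0.23 (adjusted p = 2.9e-07) in Supraspinatus minus Patellar, -2.09 ± 0.23 (2.9e-06) in Patellar minus Flexor and -2.44 ± 0.23 (2.7e-06) in Patellar minus Achilles. The other core protein, Uqcrc2, changed by 2.0, -1.71 and -1.76. The Rieske iron-sulfur protein Uqcrfs1 averaged 585 ± 57.1 CPM in Supraspinatus, 111 ± 22.2 in Patellar, 329 ± 62.7 in Flexor and 459 ± 151 in Achilles. It was also called higher in Supraspinatus than in Flexor (0.83 ± 0.21, adjusted p = 0.0072).

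In complex V all 16 nuclear-encoded members were called higher in Supraspinatus than in Patellar and lower in Patellar than in Flexor, and 15 were called lower in Patellar than in Achilles. The beta subunit gene Atp5b (chr10:128083273-128090391), which carries the catalytic sites of the head, had 3791, 3656, 3625 and 3235 CPM in Supraspinatus, 897, 766, 711 and 671 CPM in Patellar, 3022, 2987, 3018 and 2621 CPM in Flexor and 2747, 2430.1, 4433 and 2680.2 CPM in Achilles. No Patellar library came near those of another tendon, and Supraspinatus and Achilles overlapped. Atp5b changed by 2.23 ± 0.20 (adjusted p = 2.4e-07), -1.94 ± 0.20 (1.2e-06) and -2.01 ± 0.20 (3e-06) in the same comparisons. The alpha subunit gene Atp5a1 changed by 2.21, -1.98 and -2.07. With the muscle covariate Atp5b still passed, at 1.67 (adjusted p = 0.0097), -1.42 (0.015) and -1.46 (0.024).

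The epsilon subunit gene Atp5e was the complex V member not called in Patellar minus Achilles. It had 382, 439, 336 and 273 CPM in Supraspinatus, 241, 120.2, 131 and 128 CPM in Patellar, 227, 279, 308 and 196 CPM in Flexor and 175, 186, 315 and 182 CPM in Achilles. Patellar 1 stood above the other Patellar libraries and inside the Achilles range. Its call in Patellar minus Flexor (-0.70 ± 0.25, adjusted p = 0.028) was lost without Flexor 2 or 3 or Patellar 2, 3 or 4, with an adjusted p of up to 0.10.

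The membrane ring of ATP synthase is built from copies of 1 protein, the c subunit, whose same mature form is made from the genes Atp5g1, Atp5g2 and Atp5g3. Atp5g1 had 240.4, 291, 259 and 197 CPM in Supraspinatus, 60.5, 24.2, 30.3 and 31.0 CPM in Patellar, 151, 188, 196 and 140.2 CPM in Flexor and 132, 134, 267 and 123 CPM in Achilles. It was the c subunit gene with the largest change, 2.76 ± 0.30 (adjusted p = 1.7e-06) in Supraspinatus minus Patellar, where Atp5g2 changed by 1.26 ± 0.20 (6.6e-05) and Atp5g3 by 1.41 ± 0.19 (1.3e-05). Of the summed level of the 3 genes per kb of exon, Atp5g1 made up 11.6% in Supraspinatus, 4.78% in Patellar, 9.76% in Flexor and 8.11% in Achilles (means), and each Patellar library, from 3.19% to 6.38%, lay below all others. Atp5g3 made up most of the sum in every tendon, between 83.5% and 89.4% in the means. The length used was that of all annotated exons of a gene, 4912 bp for Atp5g1, 1675 bp for Atp5g2 and 2181 bp for Atp5g3. Shares of different genes in the sum depend on these lengths. Of the 50-base windows of Atp5g2, 38.35% also occur in other annotated genes, so its counts are uncertain.

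By role, the nuclear-encoded catalytic core subunits of complexes I, II and III, 10 genes, were all called higher in Supraspinatus than in Patellar (median log2 fold change 1.99) and lower in Patellar than in Flexor (-1.66) and Achilles (-1.80). The 5 genes of the ATP synthase head had medians of 1.84 and -1.60 in Supraspinatus minus Patellar and Patellar minus Flexor, and all 5 passed in both. The 12 assembly factors had medians of 0.62, -0.36 and -0.43 in the 3 comparisons. Whether these roles differ from each other was not tested.

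Complex IV, cytochrome c oxidase, held the members with the largest changes in both directions. Of 19 nuclear-encoded members tested, 13 were called higher and 2 lower in Supraspinatus minus Patellar, 3 higher and 14 lower in Patellar minus Flexor, and 2 higher and 14 lower in Patellar minus Achilles. Cox5a, an early-assembled subunit, averaged 311 ± 37.7 CPM in Supraspinatus, 50.2 ± 26.1 in Patellar, 169 ± 27.6 in Flexor and 227 ± 82.4 in Achilles. It changed by 2.63 ± 0.30 (adjusted p = 3e-06), -1.75 ± 0.29 (0.00013) and -2.18 ± 0.30 (4.3e-05). The widely used Cox4i1 changed less, by 0.97 ± 0.19 (0.00042), -0.64 ± 0.19 (0.0091) and -0.90 ± 0.19 (0.0014), and Cox6b1 by 1.41 ± 0.22 (6.6e-05), -0.99 ± 0.22 (0.0014) and -1.04 ± 0.22 (0.0016).

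Cox6a2 (chr7:128205435-128206387), the heart and muscle form of subunit VIa, had 1206, 1358, 1055 and 778 CPM in Supraspinatus, 221, 6.91, 10.4 and 51.3 CPM in Patellar, 743, 766, 751 and 507 CPM in Flexor and 681, 704, 1474 and 678 CPM in Achilles. Patellar libraries differed widely among themselves, with Patellar 1 highest and Patellar 2 lowest, the order of their muscle marker shares, and all lay below every other library. The log2 fold change was 3.92 ± 0.81 in Supraspinatus minus Patellar (adjusted p = 0.00073), -3.26 ± 0.78 in Patellar minus Flexor (0.0027) and -3.61 ± 0.80 in Patellar minus Achilles (0.0022).

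Its widely used counterpart Cox6a1 (chr5:115345642-115348981) had 79.1, 126, 102 and 87.9 CPM in Supraspinatus, 289, 272, 278 and 223 CPM in Patellar, 109, 132, 138 and 129.9 CPM in Flexor and 178, 167, 145 and 187 CPM in Achilles. Here the Patellar libraries were the highest and close together, and the Achilles libraries lay between them and the rest. Cox6a1 was lower in Supraspinatus than in Patellar, by -1.43 ± 0.15 on the log2 scale (adjusted p = 1.1e-06), and than in Achilles, by -0.78 ± 0.15 (0.00074). It was higher in Patellar than in Flexor, by 1.06 ± 0.15 (2.3e-05), and than in Achilles, by 0.65 ± 0.15 (0.0024).

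Cox7a1 (chr7:30184144-30186078), the muscle form of subunit VIIa, had 448, 446, 373 and 303 CPM in Supraspinatus, 60.2, 3.63, 4.10 and 15.2 CPM in Patellar, 250.1, 292, 306 and 205 CPM in Flexor and 173, 179.5, 360.1 and 165 CPM in Achilles. Its Patellar libraries stood in the same order as those of Cox6a2 and below all others. The log2 fold changes were 4.24 ± 0.71 in Supraspinatus minus Patellar (adjusted p = 0.00011), -3.66 ± 0.69 in Patellar minus Flexor (0.00037) and -3.40 ± 0.68 in Patellar minus Achilles (0.0011). Unlike Cox6a1, the widely used Cox7a2 was lowest in Patellar too, at 125 ± 36.5 CPM, against 216 ± 35.8 in Supraspinatus, 212 ± 44.3 in Flexor and 184 ± 41.1 in Achilles. It changed by 0.79 ± 0.21 (0.0049), -0.76 ± 0.21 (0.0069) and -0.56 ± 0.21 (0.047), with overlap between the groups in each. The call in Patellar minus Achilles was lost in 10 of 16 fits that left out 1 library (adjusted p of up to 0.158).

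Cox8b (chr7:140898945-140900446), the muscle form of subunit VIII, had 433, 467, 393 and 291 CPM in Supraspinatus, 152, 19.9, 23.1 and 33.9 CPM in Patellar, 269, 299.9, 323 and 194 CPM in Flexor and 292, 302, 629 and 288 CPM in Achilles. Patellar 1 was again the highest Patellar library, and none reached the lowest of the others. Its log2 fold changes were 2.79 ± 0.54 in Supraspinatus minus Patellar (adjusted p = 0.00042), -2.25 ± 0.53 in Patellar minus Flexor (0.0022) and -2.72 ± 0.54 in Patellar minus Achilles (0.00094).

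Cox8a (chr19:7215153-7217616), the widely used form, had 63.0, 82.7, 66.0 and 64.4 CPM in Supraspinatus, 227, 217, 244 and 196 CPM in Patellar, 85.6, 98.1, 104 and 93.0 CPM in Flexor and 134, 127, 126 and 152 CPM in Achilles. The 4 tendons formed 4 separate ranges, with Patellar highest, then Achilles, then Flexor, then Supraspinatus, and neighbours in that order differed beyond their spread. Cox8a passed in all 6 comparisons, by -1.68 ± 0.12 in Supraspinatus minus Patellar (adjusted p = 3e-08), -0.46 ± 0.12 in Supraspinatus minus Flexor (0.0067) and -0.96 ± 0.12 in Supraspinatus minus Achilles (1.7e-05). In Patellar minus Flexor it changed by 1.22 ± 0.12 (7.7e-07), in Patellar minus Achilles by 0.72 ± 0.12 (0.00018) and in Flexor minus Achilles by -0.50 ± 0.12 (0.0073).

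**Figure D3:**
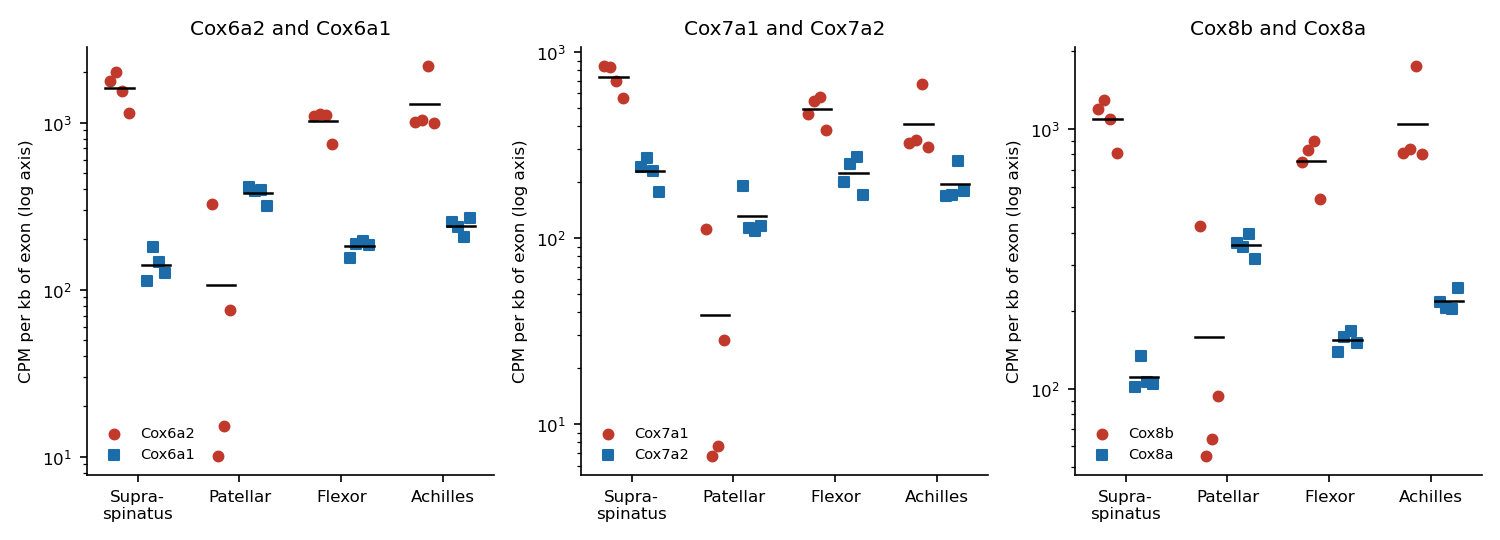
Level of the muscle form (red circles) and the widely used form (blue squares) of 3 subunits of complex IV in CPM per kb of exon, on log axes, with 1 point per library and black lines at the tendon means. Cox6a2, Cox7a1 and Cox8b lie above their counterparts in Supraspinatus, Flexor and Achilles, and on average below them in Patellar, where Cox6a1 and Cox8a are at their highest.

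CPM per kb of exon, with all annotated exons of a gene as its length, allow a rough comparison of different genes. On this scale Cox6a2 averaged 1617, 106, 1017 and 1300 in Supraspinatus, Patellar, Flexor and Achilles, and Cox6a1 141, 378, 181 and 241. Cox7a1 averaged 734, 38.9, 492 and 410, against 229, 132, 224 and 194 for Cox7a2, and Cox8b averaged 1099.9, 159, 755 and 1049, against 111, 357, 154 and 218 for Cox8a. The muscle form thus made up most of each pair outside Patellar. Cox6a2 made up 44.2%, 2.56%, 3.71% and 19.2% of its pair in Patellar libraries 1 to 4, Cox7a1 37.2%, 5.64%, 6.56% and 19.7%, and Cox8b 53.6%, 13.6%, 14% and 22.9%. The lowest shares in the other tendons were 78.9% for Cox6a2, 63.3% for Cox7a1 and 76.5% for Cox8b, all in Achilles 4.

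**Figure D4:**
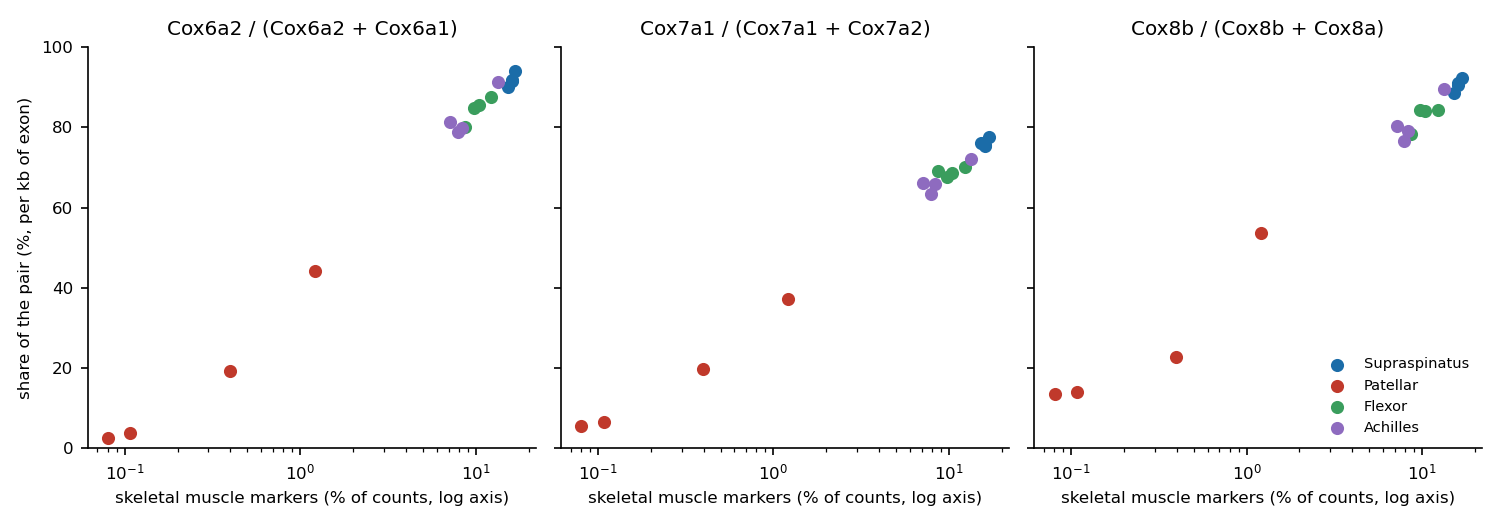
Share of the muscle form in each pair (percent of the summed CPM per kb of exon, y axis) against the share of counts in skeletal muscle markers (percent, log x axis), 1 point per library coloured by tendon. Patellar libraries, with at most 1.22% of counts in muscle markers, lie at the lower left in every panel, and Supraspinatus libraries, with at least 15.2%, at the upper right.

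The shares of the muscle forms moved with the muscle marker shares both within Patellar and between tendons. With the marker mean as a covariate, Cox7a1 was at 0.09 in Supraspinatus minus Patellar (adjusted p = 0.90) and 0.06 in Patellar minus Flexor (0.93), and Cox8b at -0.37 in Supraspinatus minus Patellar (0.60). Cox6a2 turned round, to -0.97 (0.091) in Supraspinatus minus Patellar and 1.14 (0.036) in Patellar minus Flexor. Cox8a kept its direction and its call in Supraspinatus minus Patellar (-1.57, adjusted p = 0.0012) and in Patellar minus Flexor (1.11, 0.0047), as did Cox6a1 (-1.30, 0.011, and 0.94, 0.035). In Patellar minus Achilles the covariate left Cox6a1 at 0.52 (0.28) and Cox8a at 0.61 (0.12). White adipocyte markers moved with these genes in some comparisons only. All 12 were called lower in Supraspinatus than in Patellar and higher in Patellar than in Flexor. All 12 were also called lower in both Supraspinatus and Flexor than in Achilles. In Supraspinatus minus Flexor and in Patellar minus Achilles, 2 of the 12 were called higher and 1 lower in each. Of the 4 brown adipocyte markers 3 were tested, with 2 called higher and 1 lower in Supraspinatus minus Patellar. There were 0 higher and 2 lower in Patellar minus Flexor, in Patellar minus Achilles and in Supraspinatus minus Flexor. Supraspinatus minus Achilles had 0 higher and 1 lower, and Flexor minus Achilles 1 and 1. Ucp1 was at 8.26 CPM in Supraspinatus 2 and at most 0.184 CPM elsewhere. The part of either kind of fat cell in the result was not tested.

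Cox4i2, the form of subunit IV known from lung and from low oxygen, had a different pattern. It had 3.18, 2.99, 4.60 and 11.4 CPM in Supraspinatus, 3.65, 2.98, 5.07 and 1.59 CPM in Patellar, 19.7, 25.7, 20.6 and 65.6 CPM in Flexor and 16.6, 22.9, 14.2 and 15.4 CPM in Achilles. All Flexor and Achilles libraries were above all Supraspinatus and Patellar libraries, and Flexor 4 was far above the rest. Cox4i2 was lower in Supraspinatus than in Flexor, by -2.57 ± 0.48 (adjusted p = 0.00079), and than in Achilles, by -1.64 ± 0.47 (0.013), and lower in Patellar than in Flexor, by -3.32 ± 0.50 (5.6e-05), and than in Achilles, by -2.39 ± 0.49 (0.0012). Neither Supraspinatus and Patellar (0.75 ± 0.47, adjusted p = 0.20) nor Flexor and Achilles (0.93 ± 0.46, 0.19) differed beyond their spread. With the muscle covariate the call in Patellar minus Achilles was lost (-3.23, adjusted p = 0.061). Schwann cell markers, a list of 7 genes, were all called lower in the 4 comparisons in which Cox4i2 was called, and 6 of 7 were also called lower in Supraspinatus minus Patellar, where Cox4i2 was not. They stood at mean shares of 0.0420% and 0.0601% of counts in Supraspinatus and Patellar and 0.338% and 0.331% in Flexor and Achilles. Within tendons the libraries went both ways. Flexor 4 had the highest Schwann share of the Flexor libraries (0.520%) and the highest Cox4i2 level. Achilles 3 had the highest Schwann share of the Achilles libraries (0.577%) and their lowest Cox4i2 level. Endothelial markers, also 7 genes, took mean shares of 0.0265%, 0.0339%, 0.0504% and 0.0729% in Supraspinatus, Patellar, Flexor and Achilles, and 2, 6, 0 and 5 of them were called lower in Supraspinatus minus Flexor, Supraspinatus minus Achilles, Patellar minus Flexor and Patellar minus Achilles. The part of either cell type in the result was not tested.

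Ndufa4 and its low-oxygen-induced paralog Ndufa4l2 also parted. Ndufa4 averaged 518 ± 99.5 CPM in Supraspinatus, 160.4 ± 34.5 in Patellar, 478 ± 103 in Flexor and 424 ± 138 in Achilles. It changed by 1.69 ± 0.23 (adjusted p = 1.8e-05), -1.58 ± 0.23 (4.1e-05) and -1.40 ± 0.23 (0.00021) in the comparisons with Patellar. Ndufa4l2 had 78.8, 53.6, 86.5 and 127 CPM in Supraspinatus, 259, 106, 92.6 and 143 CPM in Patellar, 80.4, 90.1, 72.5 and 174 CPM in Flexor and 70.4, 112, 55.4 and 82.7 CPM in Achilles. The ranges overlapped, with no call in any comparison. Cox7a2l, a relative of Cox7a2, had log2 fold changes from -0.04 to 0.11, with standard errors of 0.15. It averaged 37.1 ± 5.41, 36.0 ± 6.03, 34.4 ± 2.47 and 35.5 ± 6.35 CPM in Supraspinatus, Patellar, Flexor and Achilles. Cox6b2, a testis form, averaged 1.19, 1.86, 1.02 and 1.2 CPM in the same order. Its call in Patellar minus Flexor (0.86 ± 0.34, adjusted p = 0.044) was lost in 8 of 16 fits that left out 1 library (adjusted p of up to 0.198).

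The assembly factors, proteins that build the complexes without staying in them, included members with calls against the direction of most subunits. Of the 12, 7 were called higher and 1 lower in Supraspinatus minus Patellar, 3 higher and 6 lower in Patellar minus Flexor, and 1 higher and 6 lower in Patellar minus Achilles. Of all genes tested, 26.4%, 24.2% and 17.4% were called higher in these comparisons, and 26.8%, 26.2% and 21.1% lower. Calls against most subunits were thus about as frequent as over all genes in Patellar minus Flexor. They were less frequent in Supraspinatus minus Patellar and Patellar minus Achilles. Ndufaf6 followed the subunits, averaging 20.2 ± 1.16, 6.46 ± 1.03, 10.8 ± 1.72 and 12.1 ± 2.59 CPM in Supraspinatus, Patellar, Flexor and Achilles, and it passed in all comparisons but Flexor minus Achilles. Ndufaf4 averaged 68.4 ± 5.82, 23.1 ± 3.89, 49.6 ± 4.98 and 37.4 ± 8.73 CPM and changed by 1.56 ± 0.15 (adjusted p = 6.9e-07) in Supraspinatus minus Patellar and 0.87 ± 0.15 (0.00041) in Supraspinatus minus Achilles.

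Ndufaf2, which acts late in the assembly of complex I, went the other way. It had 8.79, 9.48, 9.42 and 8.95 CPM in Supraspinatus, 14.5, 13.6, 12.0 and 9.45 CPM in Patellar, 8.20, 8.37, 8.82 and 7.87 CPM in Flexor and 9.33, 8.87, 10.4 and 9.48 CPM in Achilles. Patellar libraries 1 to 3 were the highest of all, and Patellar 4 lay among the Achilles libraries. Of its 50-base windows 64.1% also occur in the annotated gene B230220B15Rik, so its counts are uncertain. It changed by -0.44 ± 0.14 in Supraspinatus minus Patellar (adjusted p = 0.014, and 0.052 without Patellar 1). In Patellar minus Flexor it changed by 0.58 ± 0.14 (0.0024). In Patellar minus Achilles it changed by 0.38 ± 0.14 (0.038), a call lost in 13 of 16 fits that left out 1 library (adjusted p of up to 0.151). Ndufaf3 averaged 27.9 ± 0.565, 23.4 ± 2.07, 17.7 ± 2.27 and 22.3 ± 2.11 CPM in Supraspinatus, Patellar, Flexor and Achilles. It was higher in Supraspinatus than in Flexor (0.66 ± 0.11, adjusted p = 0.00035) and in Patellar than in Flexor (0.40 ± 0.11, 0.0074, and 0.059 without Flexor 1).

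Sdhaf1, needed to insert iron-sulfur clusters into Sdhb, had 5.90, 6.55, 6.49 and 7.30 CPM in Supraspinatus, 4.94, 3.65, 6.39 and 4.79 CPM in Patellar, 2.52, 2.13, 2.0 and 1.99 CPM in Flexor and 5.13, 4.50, 5.05 and 4.46 CPM in Achilles. Flexor libraries were the lowest and apart from all others. The log2 fold change was 1.6 ± 0.19 in Supraspinatus minus Flexor (adjusted p = 7.9e-06), 1.19 ± 0.18 in Patellar minus Flexor (6.8e-05) and -1.15 ± 0.18 in Flexor minus Achilles (0.00059). Of its 50-base windows 69.0% also occur in the overlapping annotated gene E130208F15Rik, and reads of the pair cannot be told apart in the deposited counts. Sdhaf3, another factor for Sdhb, was high in Supraspinatus, at 17.3 ± 0.643 CPM, against 7.92 ± 2.79 in Patellar, 9.85 ± 1.44 in Flexor and 9.66 ± 2.32 in Achilles. It passed in all 3 comparisons with Supraspinatus (1.13 ± 0.21, 0.81 ± 0.21 and 0.84 ± 0.21, adjusted p = 0.00036, 0.0090 and 0.0062). Sdhaf4, a factor for Sdha, was highest in Achilles, at 40.6 ± 11.1 CPM, and lower in Patellar than in Achilles by -0.83 ± 0.19 (0.0031).

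The mitochondrially encoded members had medians of the same sign as the nuclear-encoded ones in the comparisons with Supraspinatus. Their medians were of opposite sign in Patellar minus Flexor and Patellar minus Achilles. Whether the 2 genomes differ was not tested. In Supraspinatus minus Patellar 3 of 13 were called higher and 0 lower, in Patellar minus Flexor 3 higher and 0 lower, and in Patellar minus Achilles 2 higher and 0 lower. These were 23.1%, 23.1% and 15.4% of the 13, beside 53.3%, 50.3% and 38.4% of all genes tested. Of all genes, 26.4%, 24.2% and 17.4% were called higher. The mitochondrially encoded medians were 0.47, 0.27 and 0.38. With the muscle covariate these medians were -0.64, 1.37 and 1.48, so that the sign turned in Supraspinatus minus Patellar, with 0 members called higher and 1 (mt-Nd6) lower, while 6 and 4 members were called higher in Patellar minus Flexor and Patellar minus Achilles. In Supraspinatus minus Flexor 8 of 13 (61.5%) were called higher, and in Supraspinatus minus Achilles 7 of 13 (53.8%). Of all genes tested, 14.7% and 16.9% were called higher there. The mitochondrially encoded medians were 0.76 and 0.72, and the nuclear-encoded ones 0.33 and 0.33. In all, 0 were called in Flexor minus Achilles by edgeR, DESeq2 or limma with voom (median -0.11, and 0 with an unadjusted p under 0.05). The highest tendon mean was in Supraspinatus for 11 members and in Patellar for mt-Nd3 and mt-Nd6.

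These counts depended on single libraries. Leaving out 1 library at a time gave 1 to 7 mitochondrially encoded members called higher in Supraspinatus minus Patellar. In Supraspinatus minus Flexor it gave 0 to 12 (0 without Flexor 4, and 12 without Patellar 2), and in Supraspinatus minus Achilles 1 to 10. In Patellar minus Flexor it gave 0 to 7 (0 without Patellar 1 or Patellar 3, and 7 without Patellar 2), and in Patellar minus Achilles 1 to 7. Patellar 2 was the lowest Patellar library for all 13. Copies of mitochondrial sequence in the nuclear genome also bear on them. For 5 members (mt-Co2, mt-Co3, mt-Atp6, mt-Nd4l and mt-Nd3) at least 97% of 50-base windows also occur in another annotated gene, for mt-Nd4 62.2% and for mt-Co1 51.1%, so that their counts are uncertain. For the other 6 the share was under 10%. Of these 6, 2 (33.3%) were called higher in each comparison with Supraspinatus. Of all genes, 26.4%, 14.7% and 16.9% were called higher there against Patellar, Flexor and Achilles. In Patellar minus Flexor 1 of the 6 was called higher and in Patellar minus Achilles 0, beside 24.2% and 17.4% of all genes.

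mt-Nd1 (chrM:2751-3707), a membrane subunit of complex I with under 10% of shared windows, had 8002, 9223, 8306 and 7066 CPM in Supraspinatus, 5120.1, 2396, 6028 and 5183 CPM in Patellar, 4806, 5001, 4889 and 4128 CPM in Flexor and 3766, 3512, 6206 and 4008 CPM in Achilles. All Supraspinatus libraries were above all others, while the other 3 tendons overlapped. It changed by 0.80 ± 0.26 in Supraspinatus minus Patellar (adjusted p = 0.017), 0.79 ± 0.26 in Supraspinatus minus Flexor (0.032) and 0.90 ± 0.26 in Supraspinatus minus Achilles (0.015). The call against Flexor was lost without any 1 Flexor library or without Supraspinatus 1, 2 or 3 (adjusted p of up to 0.0838), and that against Achilles without Achilles 1 or 2 (up to 0.0513). That against Patellar held in all 16 such fits but was lost when genes under a mean of 5 CPM were left out (0.55, adjusted p = 0.096), with only the 8 libraries compared (0.76, 0.069) and with the muscle covariate (-0.20, 0.83).

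mt-Cytb, the cytochrome b of complex III, had 10864, 11457, 10220.1 and 8326 CPM in Supraspinatus, 7509, 3369, 8616 and 7291 CPM in Patellar, 6629.9, 6503, 6394 and 5352 CPM in Flexor and 5879, 5371, 9677 and 6196 CPM in Achilles. It passed in no comparison, the smallest adjusted p being 0.061 in Supraspinatus minus Flexor. mt-Co1, the catalytic subunit of complex IV, was called higher in Supraspinatus than in Patellar (0.71 ± 0.26, adjusted p = 0.032), at 8449 ± 847 CPM against 5181 ± 1734. The call was lost without Patellar 1, Patellar 2, Supraspinatus 1 or Supraspinatus 2 (up to 0.0975).

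mt-Nd6, the protein gene on the other strand of the mitochondrial genome, had 688, 783, 724 and 636 CPM in Supraspinatus, 1162, 479, 1244 and 999 CPM in Patellar, 629.8, 578, 528 and 534 CPM in Flexor and 608, 622, 1044 and 722 CPM in Achilles. Patellar 1, 3 and 4 were above all Supraspinatus and Flexor libraries and Patellar 2 below them all. Its change in Patellar minus Flexor was 0.77 ± 0.24 (adjusted p = 0.015), and it was lost without Patellar 1 (0.056) or Patellar 3 (0.065). mt-Nd3 averaged 31.9 ± 7.57, 33.2 ± 13, 17.8 ± 3.42 and 15.7 ± 5.01 CPM in Supraspinatus, Patellar, Flexor and Achilles, and had the largest change of the mitochondrially encoded members in Patellar minus Achilles (1.08 ± 0.30, 0.0092). mt-Co3 was higher in Supraspinatus, at 498 ± 70.1 CPM, than in Achilles, at 242 ± 78.2 (1.04 ± 0.26, 0.0063), a call that held in all 16 fits that left out 1 library.

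**Figure D5:**
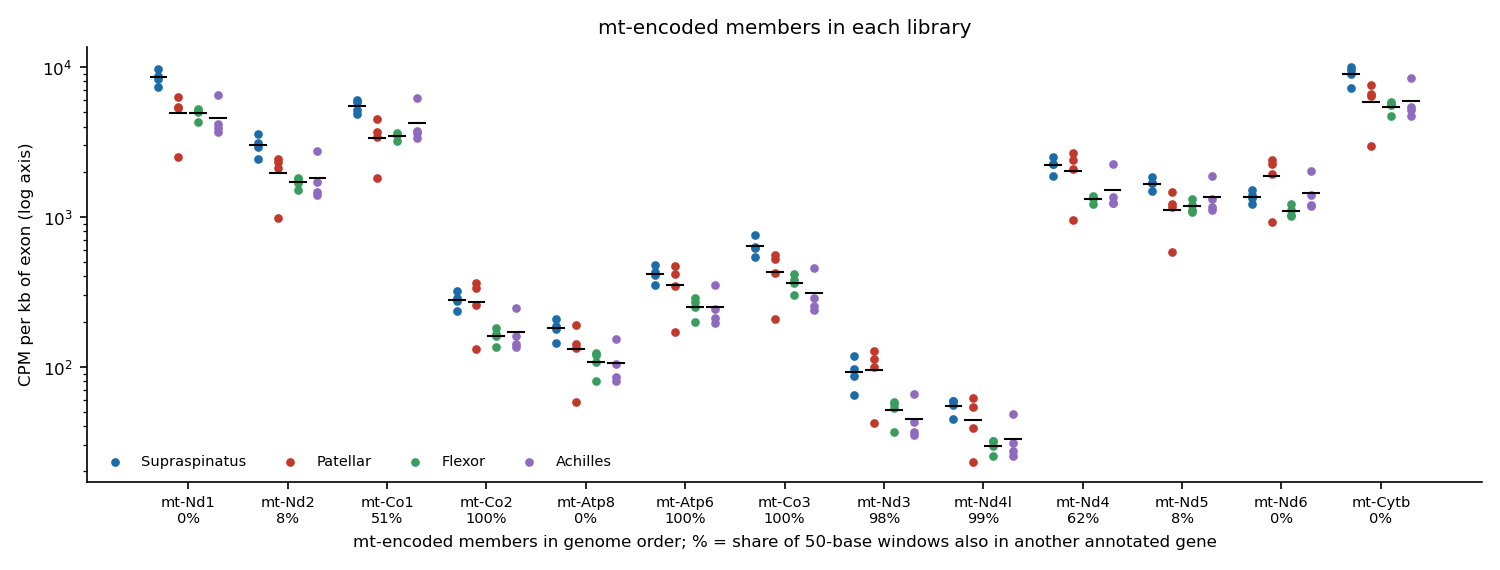
Level of the 13 mitochondrially encoded members in CPM per kb of exon on a log axis, with 1 point per library coloured by tendon and black lines at the tendon means. Under each name stands the share of its 50-base windows that also occur in another annotated gene. Supraspinatus means are highest for 11 members, and for each member 1 Patellar library, Patellar 2, lies below the other Patellar libraries.

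Among the other 3 pairs of tendons fewer members differed. In Supraspinatus minus Flexor 30 members were called higher and 2 lower, 28.8% of the members tested beside 27.1% of all genes tested. Over all genes, 14.7% were called higher and 12.4% lower. The 22 nuclear-encoded members called higher were 14 of complex I, 4 of complex II, 1 of complex III, 1 of complex IV and 2 of complex V, with 7 assembly factors among them, and the 2 lower were Cox4i2 and Cox8a. Sdhb (0.60 ± 0.21, adjusted p = 0.043), Cox5a (0.88 ± 0.29, 0.031) and Atp5j, which encodes coupling factor 6 of ATP synthase (0.64 ± 0.20, 0.027), were called here. Each was lost in several of 16 fits that left out 1 library, with adjusted p of up to 0.112, 0.0883 and 0.0785. The count of 32 fell to 15, 19, 20 and 14 without Flexor 1 to 4 and to 16, 16 and 17 without Supraspinatus 1 to 3, and it was 49 with the Patellar libraries left out of the fit. Calls over all genes rose there too, to 9643 of 22985 from 6441 of 23754.

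In Supraspinatus minus Achilles 23 members were called higher and 3 lower, 23.4% of the members tested beside 33.6% of all genes tested, 16.9% higher and 16.7% lower. The 3 lower were Cox8a, Cox6a1 and Cox4i2, and the 16 nuclear-encoded members called higher were 12 of complex I, 5 of them assembly factors, Sdhaf3 of complex II, Uqcrb of complex III, and Atp5e and Atp5mpl of complex V. Uqcrb, a ubiquinone-binding subunit of complex III (0.54 ± 0.20, adjusted p = 0.046), was lost in 11 of 16 fits that left out 1 library (up to 0.138), and Atp5e (0.74 ± 0.25, 0.033) in 6 of 16 (up to 0.10). Achilles 3, with 13.3% of counts in muscle markers, stood above the other Achilles libraries for most nuclear-encoded members described here. Without it 73 members were called in place of 26, and without Achilles 1, 2 or 4, Flexor 1 or Supraspinatus 1, 2 or 3 the count was 10, 10, 12, 16, 13, 12 or 13.

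Flexor minus Achilles had 3 members called, all lower, beside 16.2% of all genes tested, 6.5% higher and 9.72% lower. These were Sdhaf1 and Cox8a, given above, and Sdhaf4, which had 22.8, 26.1, 29.8 and 23.0 CPM in Flexor and 32.8, 34.3, 56.9 and 38.5 CPM in Achilles (-0.68 ± 0.19, adjusted p = 0.024). The Sdhaf4 ranges did not overlap, but the call was lost without Achilles 3 (0.084) and without Flexor 1 (0.078), 2 (0.057) or 4 (0.061). The median of the nuclear-encoded members was -0.04.

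Genes that work with the respiratory chain but fall outside the name rule were described by lists. All 17 genes of the citric acid cycle and pyruvate dehydrogenase, which supply electrons to the chain, were called higher in Supraspinatus than in Patellar (median 2.14) and lower in Patellar than in Flexor (-1.70) and Achilles (-1.73). Idh3a, a subunit of the NAD-dependent isocitrate dehydrogenase, changed by 3.06 ± 0.20 (adjusted p = 2e-08) in Supraspinatus minus Patellar and -2.42 ± 0.20 (2.1e-07) in Patellar minus Flexor. Ogdh, of the oxoglutarate dehydrogenase complex, changed by -2.21 ± 0.18 (7.3e-07) in Patellar minus Achilles. In Flexor minus Achilles only Idh3a was called (0.61 ± 0.19, 0.037), and it was lost in 7 of 16 fits that left out 1 library (adjusted p of up to 0.147).

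Of 15 genes for ubiquinone synthesis, cytochrome c and the parts of complex III outside the rule, 12 were higher and 1 lower in Supraspinatus minus Patellar (median 1.15), and 9 higher and 0 lower in Supraspinatus minus Flexor. In Patellar minus Achilles 1 was higher and 11 lower. Coq2, the prenyltransferase of ubiquinone synthesis, averaged 66.2, 25, 7.99 and 15.4 CPM in Supraspinatus, Patellar, Flexor and Achilles. It changed by 3.05 ± 0.20 in Supraspinatus minus Flexor (adjusted p = 4.3e-08), 2.10 ± 0.19 in Supraspinatus minus Achilles (1.9e-06) and -0.95 ± 0.19 in Flexor minus Achilles (0.0030). Coq9, also of ubiquinone synthesis, changed by 2.89 ± 0.21 (3.8e-08) in Supraspinatus minus Patellar and -2.13 ± 0.20 (7.2e-07) in Patellar minus Flexor, and cytochrome c1, Cyc1, by -1.99 ± 0.18 (1.5e-06) in Patellar minus Achilles.

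Of 35 assembly factors outside the rule, 26 were higher and 2 lower in Supraspinatus minus Patellar (median 0.90), 19 and 1 in Supraspinatus minus Flexor, and 18 and 1 in Supraspinatus minus Achilles. There were 3 and 13 in Patellar minus Flexor, 2 and 17 in Patellar minus Achilles, and 0 and 3 in Flexor minus Achilles. The share of this list called was below that of all genes in Patellar minus Flexor (50.3%) and in Flexor minus Achilles (16.2%). Ttc19, a complex III factor, changed by 1.69 ± 0.13 (adjusted p = 1.3e-07) in Supraspinatus minus Flexor and 1.54 ± 0.13 (8.1e-07) in Supraspinatus minus Achilles. Uqcc1, another complex III factor, changed by 2.37 ± 0.17 (3.1e-08) in Supraspinatus minus Patellar and -1.69 ± 0.16 (2.9e-06) in Patellar minus Achilles, and Foxred1, a complex I factor, changed by -1.28 ± 0.14 (8e-06) in Patellar minus Achilles.

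Genes for mitochondrial DNA maintenance and transcription, 17 in all, gave 13 higher and 0 lower in Supraspinatus minus Patellar (median 0.89), 1 higher and 10 lower in Patellar minus Flexor, and 0 higher and 11 lower in Patellar minus Achilles. No mitochondrially encoded member was called lower in Patellar minus Flexor or Patellar minus Achilles. Lrpprc, which stabilises mitochondrial mRNA, changed by 2.12 ± 0.19 (adjusted p = 2.8e-07) in Supraspinatus minus Patellar and -1.57 ± 0.19 (1.4e-05) in Patellar minus Achilles, and the transcription elongation factor Tefm by -1.27 ± 0.17 (1.6e-05) in Patellar minus Flexor. With the muscle covariate the Lrpprc call in Patellar minus Achilles was lost (-1.28, 0.067), while that of Tefm was kept (-1.69, 0.0055). Mgme1, a mitochondrial exonuclease, was higher in Supraspinatus than in Flexor (1.03 ± 0.13, 1.9e-05) and Achilles (0.76 ± 0.13, 0.00034).

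Of 11 nuclear regulators of mitochondrial genes, 9 were called higher and 0 lower in Supraspinatus minus Patellar (median 2.07), 1 higher and 8 lower in both Patellar minus Flexor and Patellar minus Achilles, and 1 higher and 3 lower in Flexor minus Achilles. Esrra, an estrogen-related receptor, averaged 59.1, 14.1, 14.7 and 33.4 CPM in Supraspinatus, Patellar, Flexor and Achilles, so that Patellar and Flexor were close. It changed by 2.07 ± 0.19 (adjusted p = 4e-07) in Supraspinatus minus Patellar, 2.01 ± 0.19 (1.1e-06) in Supraspinatus minus Flexor and -1.19 ± 0.19 (0.00055) in Flexor minus Achilles. The coactivator Ppargc1a changed by -2.63 ± 0.27 (1.5e-06) in Patellar minus Flexor, and Ppargc1b by 2.15 ± 0.21 (6.1e-07) in Supraspinatus minus Patellar. With the muscle covariate, Esrra stayed at 1.90 (0.015) in Supraspinatus minus Patellar and Ppargc1a at -2.88 (0.0087) in Patellar minus Flexor.

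Of 20 genes of the outer membrane, import machinery and carriers, 19 were higher and 1 lower in Supraspinatus minus Patellar (median 1.29), and 0 higher and 15 lower in Patellar minus Achilles. The channel gene Vdac1 changed by 3.54 ± 0.27 (adjusted p = 5.5e-08) and -2.72 ± 0.26 (2.5e-06) in these comparisons, and Vdac3 by 2.27 ± 0.16 (3.1e-08) in the first. The import pore gene Tomm40 was lower in Flexor than in Achilles (-0.89 ± 0.12, 0.00021), and the import receptor gene Tomm70a was higher in Supraspinatus than in Flexor (1.41 ± 0.14, 2e-06).

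The authors' deposited table of 13452 genes holds 109 of the members. By its FDR at the same threshold, and turned to the directions used here, it has 84 higher and 5 lower in Supraspinatus minus Patellar, 28 and 3 in Supraspinatus minus Flexor, and 10 and 4 in Supraspinatus minus Achilles. The authors' deposited table has 11 and 76 in Patellar minus Flexor, 7 and 78 in Patellar minus Achilles, and 0 and 5 in Flexor minus Achilles. Members called both in the authors' deposited table and here numbered 87, 30, 13, 84, 83 and 3 in the same order, all with the same direction. The sign of each authors' column was set by its correlation with the fold changes here, so agreement in direction was partly built in. Both sets of calls rest on the same libraries.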

How the data were processed

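Total RNA of 16 tendon libraries was sequenced by the submitters, and the deposited table holds raw read counts per gene. The submitters' processing notes name FastQC, HISAT2, edgeR and build mm10 without versions. They name no read counter or strand setting. The deposited log2 fold changes and FDR-adjusted p-values are the authors' own. Judged by correlation with the fold changes here, their columns run opposite to the directions used here.

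Counts were fitted over all 4 tendons with edgeR 4.0.16 (filterByExpr, TMM scaling, quasi-likelihood test) in R 4.3.3, with Benjamini-Hochberg adjustment over 23754 genes and a threshold of 0.05. The workflow was also tested on simulated data. Levels are CPM, counts scaled to a common library total, per kb of exon where genes are compared. Library totals ran from 34559686 to 107805065, and the lower depth of Patellar libraries gives their low genes less precision. Alternatives used median-ratio and nuclear-gene scaling, other filters, a fold threshold, DESeq2 1.42.0, limma 3.58.1 with voom, a replicate block, a muscle marker covariate, other sets of libraries and each library left out in turn. Members named with values were a panel by complex and role, all mitochondrially encoded members, up to 3 called members with the largest fold change in each direction and comparison at a mean of at least 10 CPM, the called member with the smallest adjusted p in each complex and comparison, small minorities within a complex, and filtered members, and up to 2 called genes per pathway list and comparison in order of adjusted p. A few named genes are not reported here. Other members named were chosen after their values were seen. Positions are from GENCODE on GRCm38, and promoters from RefSeq on GRCm38.p6. The members and lists were chosen with earlier results of these data known.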

Additional observations from a re-analysis of the deposited data

Results flagged for a closer look

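In 224 groups of 4 libraries (a member or summed share within a tendon), 42 had 1 library whose gap to its nearest neighbour exceeded Dixon's 95% critical value as a share of the group's range. Chance gives such a gap in about 1 in 20 groups, and members within a library are not independent of each other. Of the 42, 41 are given here.

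Most of these were Achilles 3, the highest Achilles library, whose nuclear-encoded members took 3.8% of counts. Among complex V genes it had 2969 CPM of Atp5a1, 4433 of Atp5b, 315 of Atp5e, 267 of Atp5g1, 36.6 of Atp5g2, 1101 of Atp5g3 and 559 of Atp5j. Among complex IV genes it had 909 CPM of Cox4i1, 351 of Cox5a, 1474 of Cox6a2, 581 of Cox6b1, 360.1 of Cox7a1, 245 of Cox7a2, 629 of Cox8b and 631 of Ndufa4. In complexes I to III it had 50.4 CPM of Ndufaf4, 659.7 of Ndufv1, 789 of Sdhb, 232 of Uqcrb, 1178 of Uqcrc1 and 684 of Uqcrfs1, and among mitochondrially encoded genes 9646 CPM of mt-Co1 and 3085 of mt-Nd4. This library had 13.3% of counts in muscle markers, against 7.14% to 8.28% in the other Achilles libraries, and the part of this in its levels was not tested.

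Patellar 1 was the highest Patellar library for Atp5a1 (591 CPM), Atp5e (241 CPM), Cox5a (88.9 CPM), Cox7a2 (179 CPM), Cox8b (152 CPM), Ndufa4 (212 CPM), Ndufaf4 (28.9 CPM), Uqcrb (98.1 CPM) and Uqcrfs1 (144 CPM). Its muscle marker share of 1.22% was the highest of the Patellar libraries. Patellar 2 was the lowest for mitochondrially encoded members, at 1.56% of counts.

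Flexor 4 was the lowest Flexor library for Atp5b (2621 CPM), Atp5g2 (25.2 CPM), Cox6a2 (507 CPM), Uqcrfs1 (235 CPM) and the Cox8b share of its pair (78.2%), and the highest for Cox4i2 (65.6 CPM). Supraspinatus 2 was the highest Supraspinatus library for Cox8a (82.7 CPM).

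Of the genes with pseudogene names that were left out, 7 had counts above the limit that a count of 0 allows. Their mean levels over 16 libraries were 136.8 CPM for Ndufb1-ps, 6.98 for Ndufab1-ps, 6.84 for Atp5c1-ps, 5.98 for Atp5k-ps2, 1.42 for Uqcrh-ps2, 0.862 for Atp5l2-ps and 0.674 for Uqcrh-ps1.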

How the results depend on the processing

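Counts of members called are given for the fit described above and then for alternatives that moved them by more than 1.5 times, and the cause was not tested unless the alternative tests fewer genes or libraries by construction. With the muscle covariate 23 members were called in Supraspinatus minus Patellar, 19 in Patellar minus Flexor, 10 in Patellar minus Achilles, 5 in Flexor minus Achilles and 49 over the 4 tendons. Over all 23754 genes the calls were 5348, 5506, 3628 and 4867 in the named pairs. When a size of 1 or more on the log2 scale was also required, the counts of members were 2 in Supraspinatus minus Flexor, 3 in Supraspinatus minus Achilles, 53 in Patellar minus Flexor, 54 in Patellar minus Achilles and 1 in Flexor minus Achilles. Without the Patellar libraries they were 49 in Supraspinatus minus Flexor, 45 in Supraspinatus minus Achilles and 6 in Flexor minus Achilles. Over all 22985 genes tested there, 9643, 11271 and 6960 were called. With only the 8 libraries compared, 61 members were called in Supraspinatus minus Flexor and 5 in Flexor minus Achilles. Over all genes, 9536 of 21555 and 6580 of 22472 were called there. Leaving out Achilles 3 and Patellar 1 together, chosen after seeing the data, gave 57, 86 and 5 members in Supraspinatus minus Flexor, Supraspinatus minus Achilles and Flexor minus Achilles, beside 7502, 8562 and 4285 of 24129 genes. A mean CPM of at least 5 gave 13 in Supraspinatus minus Achilles. In Flexor minus Achilles, scaling on nuclear genes gave 5, DESeq2 5 and limma with voom 6. Leaving out 1 library at a time gave 90 to 97 in Supraspinatus minus Patellar, 14 to 44 in Supraspinatus minus Flexor, 10 to 73 in Supraspinatus minus Achilles, 85 to 94 in Patellar minus Flexor, 78 to 88 in Patellar minus Achilles, 2 to 4 in Flexor minus Achilles and 96 to 105 over the 4 tendons. The replicate block gave 92, 30, 27, 91, 86 and 3 calls in the 6 comparisons in their usual order and 100 over the 4 tendons. Of 24 pairs of libraries with the same replicate number, 2 correlated above 0.1 (r from -0.135 to 0.255). In 6 of the 24 the best correlation was with the library of the same number. Low correlations of this kind cannot settle whether equal numbers mark the same animal. Of 5310 alternative values for 210 named gene results, 4993 kept their direction and their side of the threshold, 317 kept their direction but passed no longer, 265 of these with 1 library left out, and 0 reversed in sign. These named gene results do not include the muscle covariate, under which many calls were lost, as the report gives. Voom moved the median over all genes in Patellar minus Flexor and Patellar minus Achilles to -0.14 and -0.13. Depth limits chiefly the Patellar libraries.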
